A study of Homo sapiens with 6 samples.

Results

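The genes followed here in TGFβ-treated Panc-1 cells belong to the actomyosin machinery. They encode the regulatory light chains of myosin II (MYL9 and MYL12A), the kinase that phosphorylates these chains (MYLK), the heavy chains of non-muscle myosin II (MYH9 and MYH10), the transgelins (TAGLN and TAGLN2) and the calponins (CNN1, CNN2 and CNN3). They were taken by name, and each was read from every probe set that the platform annotation gives to that gene alone. This gave 23 probe sets for the 10 genes, of 41091 probe sets that name 1 gene and 19777 genes so named on the array. A further probe set (n = 1) that names MYL12A with another gene was left out.

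Panc-1 is a long-established human cell line grown from a pancreatic duct carcinoma. RNA was hybridized to 6 Affymetrix U133 Plus arrays. In the TGFβ group, 3 cultures were kept without serum for 24 h and then given 5 ng/mL porcine TGFβ1 for 48 h. In the untreated group, 3 cultures were starved in the same way and received plain medium. Both groups are the same unmodified line, so the values describe 1 tumor line in culture, measured in 3 repeats of the experiment.

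TGFβ is a cytokine that drives epithelial-mesenchymal transition (EMT), a change of state by which cells of an epithelium loosen their contacts, spread and become motile. Myosin II is the motor that pulls on actin filaments, and it is switched on when its regulatory light chain is phosphorylated by kinases such as MYLK. Transgelins and calponins share a calponin homology domain and bind actin filaments. TAGLN, CNN1 and MYL9 are classical genes of smooth muscle, and in that tissue serum response factor (SRF) drives many contractile genes through a DNA element called the CArG box.

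Start-site sequence from RefSeq (GRCh38.p14) was available for 8 of the 10 genes, in 13 windows of 300 bases that run from 250 bases before a start to 50 after it. The start sites of MYL9 and TAGLN were not analysed here. A CArG box was found in 2 of the 13 windows, those of MYLK and CNN2, and in 1.29% of all 35116 windows. Neither gene passed the test for a higher signal with TGFβ. The 120 bases before the start are shown for both genes, beside those of TAGLN2 and CNN3, whose signal was higher. Capitals mark the CArG box on either strand, the SMAD-type motif CAGAC or its complement GTCTG, and the TEAD-type motif CATTCC or its complement GGAATG. The MYLK stretch (chr3:123620549-123620668, minus strand) lies inside the gene, at an internal start and not at its outermost one. The others lie at chr19:1026488-1026607 (CNN2, plus strand), chr1:159925508-159925627 (TAGLN2, minus strand) and chr1:94927111-94927230 (CNN3, minus strand).
MYLK: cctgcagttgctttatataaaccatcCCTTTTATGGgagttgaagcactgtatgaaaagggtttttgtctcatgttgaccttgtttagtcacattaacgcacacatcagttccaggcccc
CNN2: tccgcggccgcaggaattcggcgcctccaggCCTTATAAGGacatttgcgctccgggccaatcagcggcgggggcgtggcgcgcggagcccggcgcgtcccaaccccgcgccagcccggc
TAGLN2: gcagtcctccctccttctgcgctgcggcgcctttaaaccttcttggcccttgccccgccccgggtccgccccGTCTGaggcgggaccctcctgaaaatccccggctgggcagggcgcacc
CNN3: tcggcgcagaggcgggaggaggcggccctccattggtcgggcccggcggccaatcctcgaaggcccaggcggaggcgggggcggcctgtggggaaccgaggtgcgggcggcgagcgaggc

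In these stretches the box sits at bases -94 to -85 of MYLK and -89 to -80 of CNN2, counted from -1 just before the start. TAGLN2 holds 1 GTCTG, and CNN3 holds none of the 3 motifs there. CAGAC or its complement occurs in 45.3% of all windows and CATTCC or its complement in 14%. The motifs did not overlap one another in the stretches shown. A match is only a run of letters, and binding was not measured.

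Signals are given on the log2 scale, on which 1 unit is a doubling, and a change is the mean of TGFβ arrays minus the mean of untreated arrays. Values of different genes come from different probes and are not compared as levels. Without any limit on signal, 6 of the 10 genes were higher with TGFβ, 1 was lower and 3 did not pass an adjusted p of 0.05. Over the array, 12.7% of genes were higher, 14.1% lower and 26.8% called in either direction. Of the 23 probe sets, 9 were higher, 1 was lower and 13 did not pass, against 9.22% higher, 11.0% lower and 20.2% in either direction among all 54613. All 3 TGFβ arrays lay above all 3 untreated arrays in 11 of the 23 and below them in 3, and each of these patterns held for 18.0% of all probe sets. The median change of the 23 was 0.14, against 0.011 over the array.

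The study discarded probe sets whose mean absolute signal was under 100 in each of the groups. Here the limit was set on the mean of the log2 values, at 6.64, which is 100 on the linear scale. The values that follow keep to this limit unless stated. Of the 23 probe sets 13 passed and 10 failed. Of those that passed, 10 did so in both groups and 3 (1 of MYL9 and 2 of TAGLN) only through the TGFβ arrays, so that they had to be higher there. Among the 13, 7 were higher and 2 lower, with 26.6% higher, 28.5% lower and 55.1% called among all 19101 probe sets that passed. Gene by gene, 9 were measured, of which 4 were higher and 1 lower, beside 27.7% higher, 31.0% lower and 58.7% called of 10115 genes, and 2 of the 4, MYL9 and TAGLN, had entered only through the TGFβ arrays. CNN1 was not measured under this limit.

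**Figure D1:**
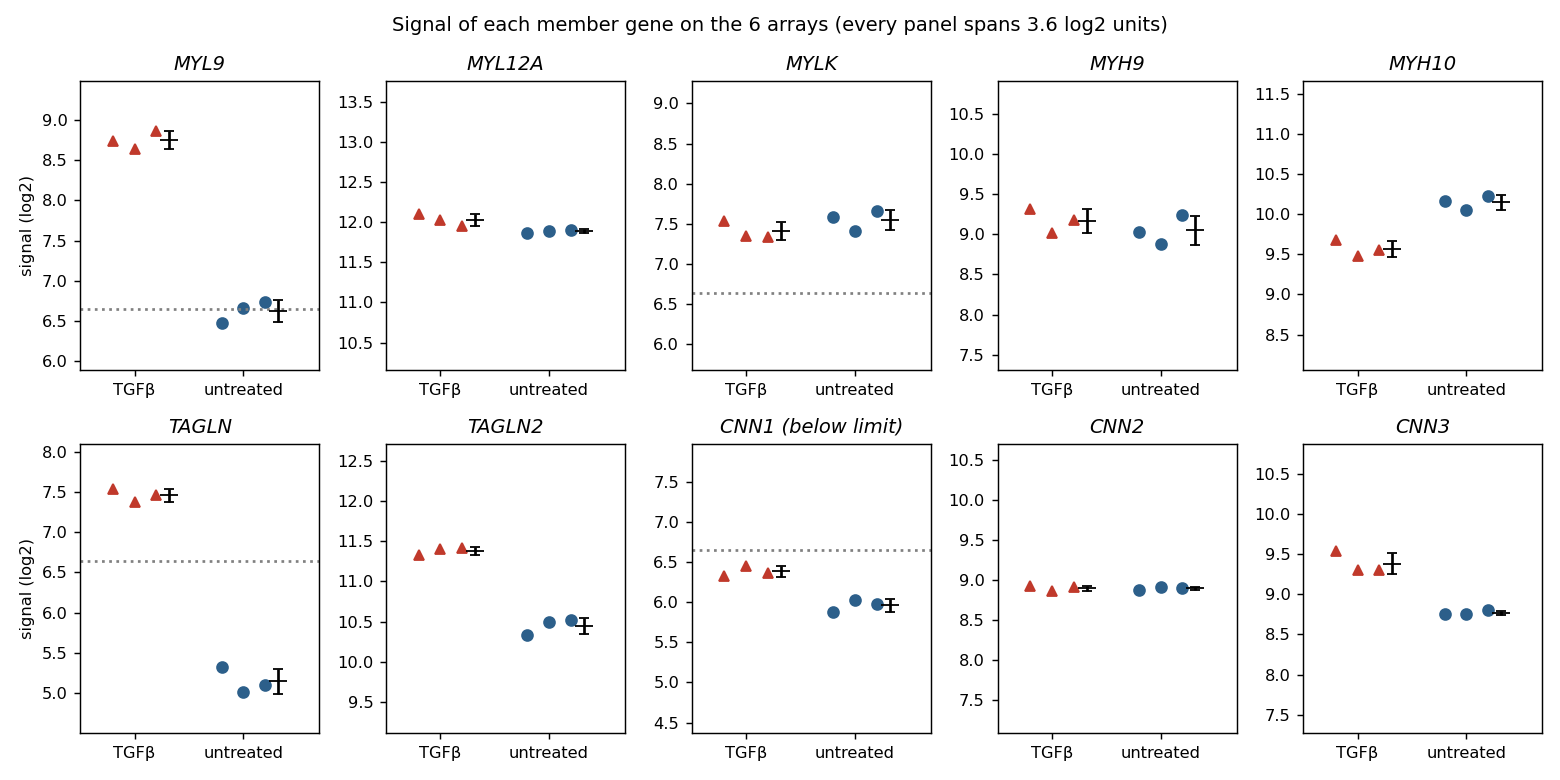
Each panel is 1 gene, with its log2 signal on the vertical axis for the 3 TGFβ arrays (triangles) and the 3 untreated arrays (circles), and the black bars give mean and SD. The signal limit of 6.64 is drawn dotted. MYL9 and TAGLN stand apart between the groups, at 8.75 against 6.62 and at 7.46 against 5.15, while CNN2 lies at 8.90 in both. The MYL9 and TAGLN probe sets drawn passed the limit only through the TGFβ arrays, so they had to be higher there. With every probe set of these genes the means are 7.12 against 5.95 and 7.12 against 5.53.

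Of the light chains, MYL9 rose. MYL12A did not pass under the signal limit but was called higher without it. MYL9, the form first described in smooth muscle, gave 8.74, 8.64 and 8.86 on the TGFβ arrays, against 6.47, 6.67 and 6.73 on the untreated arrays (probe set 201058_s_at). The groups were far apart, and the untreated arrays sat at the signal limit. The change was 2.13 (SE 0.082, adjusted p = 4.53e-06 among all probe sets, with no limit on signal). The second MYL9 probe set, 244149_at, was dim and overlapped between groups, at 5.51, 5.60 and 5.33 with TGFβ and 5.34, 5.14 and 5.34 without. Its change was 0.21 (SE 0.099, adjusted p = 0.211 without the limit on signal), and the mean of both probe sets rose by 1.17 (SE 0.060, adjusted p = 3.73e-05), rank 130 of 19777 genes from the largest rise.

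MYL12A encodes a light chain found in most cell types. Its bright probe set 201319_at gave 12.09, 12.02 and 11.95 with TGFβ, against 11.86, 11.89 and 11.91 without. The TGFβ arrays were all higher, but by little. In the gene fit, where this probe set alone stood for MYL12A, the change was 0.14 (SE 0.057, adjusted p = 0.0782). The 95% interval, which is not adjusted for the number of genes, was 0.00028 to 0.28. The dim probe set 1555976_s_at behaved differently, with 5.80, 6.08 and 6.29 against 5.02, 5.14 and 5.16. It rose by 0.95 (SE 0.087, adjusted p = 0.000255 without the limit on signal), all 6 arrays lying below the limit. The 2 remaining MYL12A probe sets, 1555977_at and 1555978_s_at, overlapped between groups and changed by 0.080 and -0.0027. Without the limit on signal, the mean of all 4 MYL12A probe sets rose by 0.29 (SE 0.066, adjusted p = 0.0169). MYL12A and its neighbor MYL12B are near-identical, so probes of either may read both. MYL12B, read from the probe set that names it alone, rose by 0.17 (SE 0.052, adjusted p = 0.0285), a call that was lost in 6 of the other settings tried.

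MYLK encodes the calcium- and calmodulin-dependent kinase of the light chains, and it was represented by 5 probe sets. As a gene it changed by -0.14 (SE 0.069, adjusted p = 0.126, 95% interval -0.31 to 0.027). The probe set 224823_at gave 7.97, 7.74 and 7.79 with TGFβ, against 8.07, 7.99 and 8.06 without, and each TGFβ array was lower than every untreated one. It fell by 0.21 (SE 0.061, adjusted p = 0.0296), a call lost in 6 of the 13 other settings. The adjusted p was 0.164 without replicate 2, 0.161 without replicate 3, 0.10 without the limit on signal, 0.0711 with median centring and 0.125 in the methods' t-test, where the unadjusted value was 0.0612. The probe set 202555_s_at overlapped between groups, at 7.11, 6.96 and 6.89 against 7.10, 6.83 and 7.25. The other 3 were dim, with group means of 3.46 to 4.65, changes of -0.21 to 0.039 and no call.

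Of the heavy chains, MYH10 fell and MYH9 did not pass. The test of their difference, given with the other pairs, cannot decide this, since its smallest possible p is 0.10. MYH10, the heavy chain of non-muscle myosin IIB, gave 9.68, 9.47 and 9.55 on the TGFβ arrays, against 10.16, 10.05 and 10.23 on the untreated arrays. Every TGFβ array lay below every untreated one, and the fall was 0.58 on the log2 scale (change -0.58, SE 0.057, adjusted p = 0.000391), or 1.49-fold. The dim second probe set 213067_at gave 6.15, 5.39 and 5.44 against 5.93, 5.73 and 5.51, with wide overlap, and the mean of both changed by -0.32. MYH9, the heavy chain of non-muscle myosin IIA, was read from 1 probe set and gave 9.31, 9.01 and 9.18 against 9.03, 8.88 and 9.24. The groups overlapped, and the change was 0.12 (SE 0.074, adjusted p = 0.215, 95% interval -0.062 to 0.30).

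Both transgelins rose. TAGLN, also known as SM22 alpha, is an actin-binding protein abundant in smooth muscle. Its probe set 205547_s_at gave 7.78, 7.40 and 7.48 with TGFβ, against 5.07, 4.87 and 4.79 without. The probe set 1555724_s_at gave 7.29, 7.35 and 7.45 against 5.58, 5.15 and 5.42. In both the untreated arrays lay below the signal limit, near the array medians, so that no exact fold is given, and the groups were well apart. With no limit on signal these rose by 2.64 (SE 0.076, adjusted p = 1.83e-06) and 1.98 (SE 0.10, adjusted p = 1.58e-05). The probe set 226523_at is annotated to TAGLN as well, and it gave 6.38, 6.49 and 6.44 against 6.26, 6.36 and 6.23. Its groups did not overlap, but it differed by only 0.15 (SE 0.072, adjusted p = 0.200 without the limit on signal). The mean of all 3 TAGLN probe sets rose by 1.59 (SE 0.057, adjusted p = 1.04e-05), rank 51 of 19777 genes.

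TAGLN2 encodes the transgelin found in many non-muscle cells, and its 2 probe sets moved alike. The probe set 200916_at gave 11.86, 11.84 and 11.92 with TGFβ, against 10.88, 11.00 and 11.10 without. The probe set 210978_s_at gave 10.80, 10.97 and 10.91 against 9.78, 9.98 and 9.94. Neither overlapped between groups and all values were far above the limit. The changes were 0.88 (SE 0.060) and 0.99 (SE 0.054), and as a gene TAGLN2 rose by 0.94 (SE 0.051, adjusted p = 4.40e-05), or 1.91-fold, ranking 266 from the top.

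**Figure D2:**
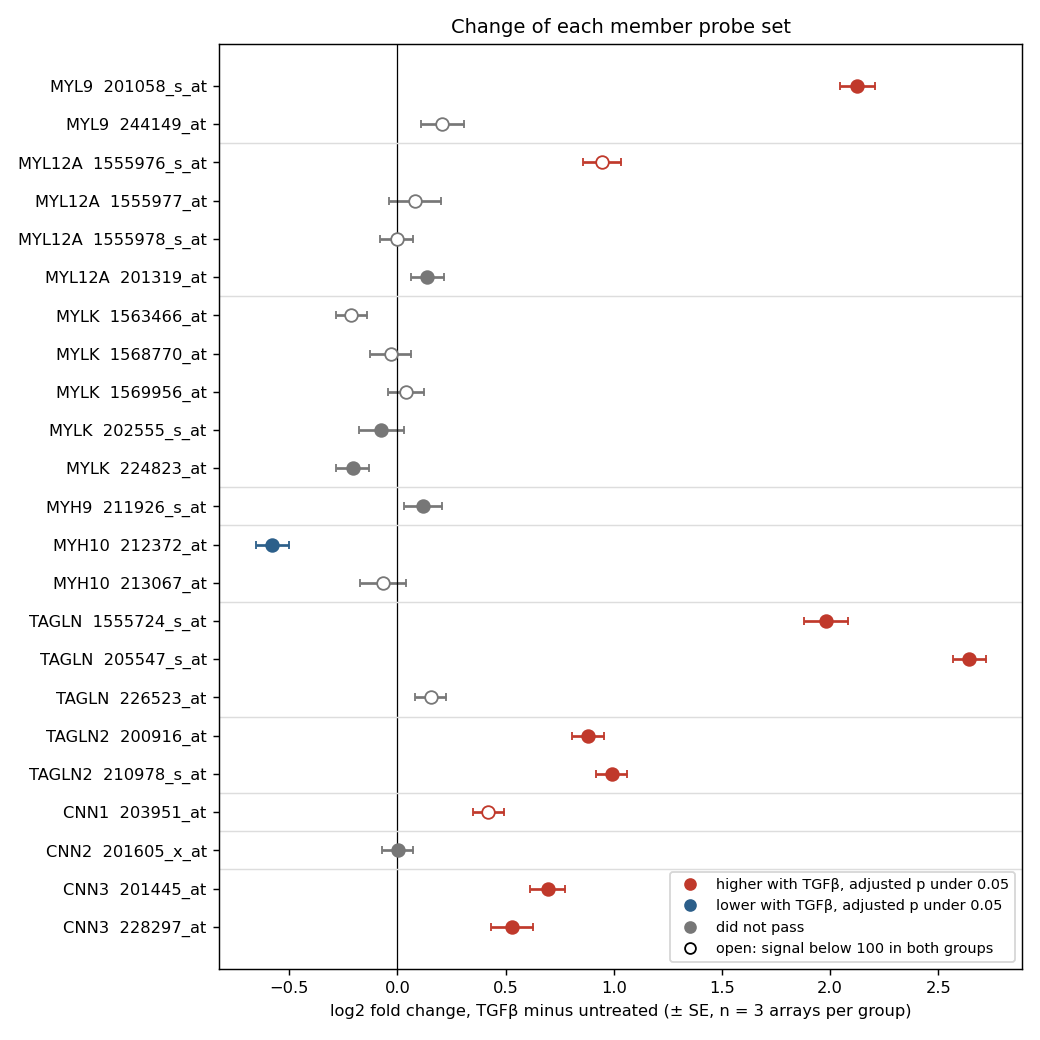
Each row is 1 of the 23 probe sets, grouped by gene, and the horizontal axis is its log2 fold change with SE from the fit without the limit on signal. Colors give the call of that fit and open circles mark probe sets below 100 in both groups. TAGLN spans 0.15 to 2.64 and MYL12A -0.0027 to 0.95 among their own probe sets, and MYLK 224823_at, called under the signal limit, is not called in this fit.

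Of the calponins, CNN3 was called higher, CNN1 was called higher only without the signal limit, and CNN2 did not pass. The tests of their differences, given with the other pairs, cannot decide whether they moved differently, since the smallest possible p is 0.10. CNN3, known as acidic calponin and expressed outside muscle, was higher on both of its probe sets. The probe set 201445_at gave 9.66, 9.74 and 9.71 with TGFβ, against 8.87, 8.99 and 9.17 without. The probe set 228297_at gave 9.41, 8.87 and 8.89 against 8.63, 8.52 and 8.43, with TGFβ replicate 1 well above the other two. Groups did not overlap on either, and the gene rose by 0.61 (SE 0.069, adjusted p = 0.000647), or 1.53-fold.

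CNN1, the basic calponin of differentiated smooth muscle, was read from 1 probe set, 203951_at. It gave 6.33, 6.45 and 6.36 with TGFβ, against 5.88, 6.03 and 5.98 without. All arrays stayed below the signal limit, though the groups did not overlap. Without the limit CNN1 rose by 0.42 (SE 0.071, adjusted p = 0.00441 among probe sets). CNN2, the calponin named neutral, was read from 1 probe set, 201605_x_at, and gave 8.92, 8.86 and 8.91 against 8.88, 8.91 and 8.90. It was therefore not measured when names ending in _x_at were dropped. The values interleaved, and the change was 0.0018 (SE 0.050, adjusted p = 0.978, 95% interval -0.12 to 0.12).

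**Figure D3:**
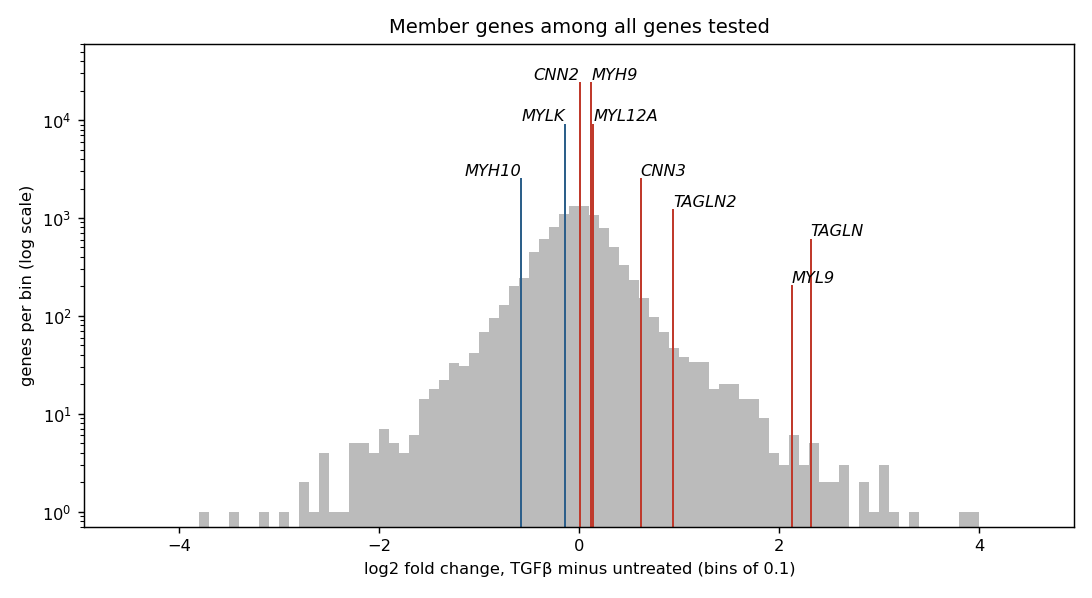
The grey bars count the 10115 genes tested by log2 fold change, TGFβ minus untreated, on a logarithmic vertical axis, and lines mark the 9 genes measured under the signal limit, red for positive and blue for negative changes whether called or not, with heights that carry no value. MYL9 at 2.13 and TAGLN at 2.31 are the highest of the 9, both having entered only through the TGFβ arrays and changing by 1.17 and 1.59 without the limit, and MYH10 at -0.58 lies on the left.

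Changes were then compared within each array for 6 pairs of related genes, as the difference of their log2 values. The difference shifted with TGFβ by 1.99 for MYL9 minus MYL12A, by 0.70 for MYH9 minus MYH10, by 1.38 for TAGLN minus TAGLN2 and by -0.61 for CNN2 minus CNN3. It shifted by 0.42 for CNN1 minus CNN2 and by -0.19 for CNN1 minus CNN3, read without the limit on signal. In all pairs but the last the 3 TGFβ arrays were separate from the 3 untreated arrays. The exact permutation test (two-sided) gave p = 0.10 for those 5, the smallest value that 3 against 3 arrays allow, and p = 0.20 for CNN1 minus CNN3. Adjusted over the 6 pairs these were 0.12 and 0.20, so none passed. Under the limit MYL9 and TAGLN were read only from probe sets that had entered through the TGFβ arrays. The shift and the separation of their pairs were therefore partly set in advance by the limit. Without the limit on signal, where dim probe sets enter the means, the shift was 0.88 for MYL9 minus MYL12A, 0.44 for MYH9 minus MYH10 and 0.66 for TAGLN minus TAGLN2.

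The other genes that build or steer myosin II were taken from a list of 40. Of these 27 were measured, 7 were below the signal limit and 6 had no probe set naming them alone, among them the 3 calmodulin genes. Of the 27, 15 rose and 1 fell, a called share of 59.3% that is close to the 58.7% of all genes (27.7% higher, 31.0% lower). Their median change was 0.16, against -0.013 for all genes, and without the limit on signal 0.058 over 34, against 0.013.

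PPP1R14C and PPP1R14B encode inhibitors of protein phosphatase 1, the enzyme type that removes phosphate from the light chain. PPP1R14C rose by 1.35 (SE 0.054, adjusted p = 1.53e-05) and PPP1R14B by 0.77 (SE 0.048, adjusted p = 7.27e-05). CALD1, which encodes the actin- and myosin-binding protein caldesmon, gave 7.88, 7.65 and 7.60 against 6.43, 6.53 and 6.45, the untreated arrays lying below the limit. Under the limit it rose by 1.24 (SE 0.075). Some of the probe sets averaged there had entered only through the TGFβ arrays, so they had to be higher in that group. Without the limit CALD1 rose by 0.51 (SE 0.061, adjusted p = 0.00116).

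The fall was in PPP1R12A, the targeting subunit of myosin phosphatase. It gave 8.77, 8.53 and 8.64 against 8.85, 8.70 and 8.88, which overlap. Its change of -0.16 (SE 0.054, adjusted p = 0.0455) lost the call in 7 of the other settings. The count for the list moved with the setting, as did the share over all genes. It was 8 of 34 (6 higher, 2 lower) without the limit on signal, where 26.8% of all genes were called, and 10 of 27 with median centring, where 51.1% were. It was 9 of 27 without replicate 2 and 10 of 27 without replicate 3, beside 42.5% and 46.6% of all genes.

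**Figure D4:**
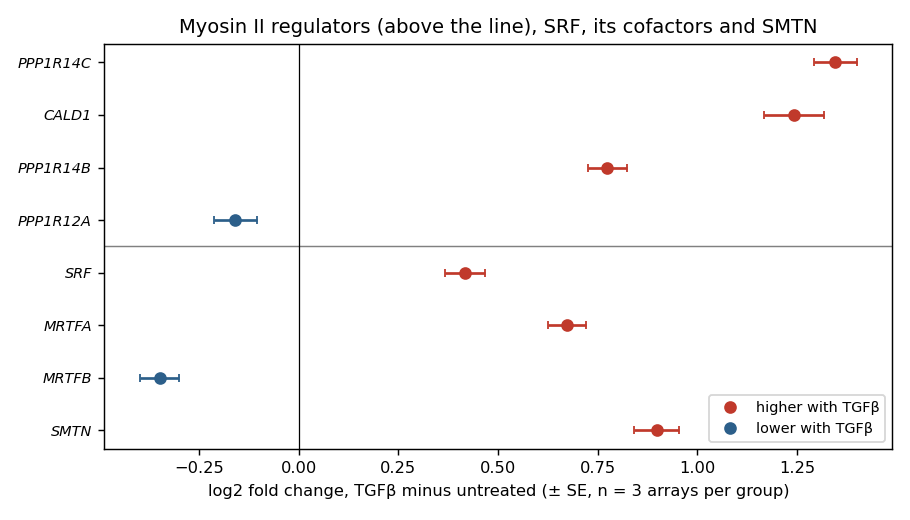
The rows above the line are 4 of the called genes of the myosin II list (PPP1R14C, CALD1, PPP1R14B and PPP1R12A). They are ordered by log2 fold change, shown with SE on the horizontal axis. Below the line follow SRF, its cofactors MRTFA and MRTFB, and SMTN. PPP1R14C at 1.35 and CALD1 at 1.24 lie farthest to the right among the rows drawn, and PPP1R12A at -0.16 is the 1 called fall of the list. CALD1 and MRTFA were read in part from probe sets that entered only through the TGFβ arrays. Without the limit these genes changed by 0.51 and 0.52.

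SRF, the factor that binds the CArG box, rose by 0.42 (SE 0.050, adjusted p = 0.000858), with 9.11, 9.10 and 9.14 on the TGFβ arrays, against 8.64, 8.73 and 8.73 on the untreated arrays. Of its actin-sensing cofactors, MRTFA gave 7.25, 7.13 and 7.18 against 6.59, 6.44 and 6.50 and rose by 0.67 (SE 0.047, adjusted p = 0.000114). The MRTFA change was 1.05 without replicate 2, 0.99 under the stricter limit and 0.52 without a limit, and it passed in each. MRTFB gave 10.26, 10.21 and 10.33 against 10.57, 10.57 and 10.71 and fell by 0.35 (change -0.35, SE 0.049, adjusted p = 0.00154). The 2 cofactors thus moved in opposite directions, although without the limit on signal MRTFB did not pass (change -0.11, adjusted p = 0.221). MYOCD, the cofactor of differentiated muscle, stayed below the limit, with probe set means of 3.94 to 4.31.

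Smooth muscle genes outside the 10 were mostly dim. Of 8 listed (TAGLN3, MYH11, ACTA2, ACTG2, DES, LMOD1, SMTN and SYNPO2), only SMTN was measured. It encodes the actin-associated protein smoothelin and rose by 0.90 (SE 0.056, adjusted p = 7.43e-05), with arrays at 8.10, 8.06 and 8.13 against 7.18, 7.08 and 7.33. For TAGLN3, the remaining transgelin, the mean was 4.66 with TGFβ and 4.70 without. The 7 probe sets of MYH11, the smooth muscle myosin heavy chain, averaged 3.89 to 6.19 with TGFβ and 3.88 to 6.14 without, and the brightest probe set of ACTA2 averaged 5.88 ± 0.15 and 6.32 ± 0.21 (SD, n = 3 each).

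Markers were checked for the labelled cell type. Of 6 genes of carcinoma epithelium, 5 had a probe set of at least 100 and KRT19 had none. The summed linear signal of the list was 4426 to 4643 with TGFβ and 11783 to 12036 without, so this sum moved with the treatment. It rests mostly on the brightest genes, KRT18 (11.78 with TGFβ, 13.03 without) and KRT8 (9.27 and 11.45). Of the 5 genes measured, 4 were called lower, beside 31.0% of all genes. Among these, CDH1 had entered only through the untreated arrays (5.56 with TGFβ, 7.58 without), so it had to be lower with TGFβ. Without the limit on signal CDH1 changed by -1.19 (adjusted p = 0.000106). KRT7, read under the limit from 1 probe set, changed by 0.24 without a call (adjusted p = 0.0569). Without the limit, the mean of its 4 probe sets changed by -0.010 (adjusted p = 0.934). None of the 5 leukocyte and endothelial markers on the array (of 7 listed) reached 100, with sums of 154 to 178 and 163 to 167, nor did any of 5 markers of differentiated smooth muscle, with sums of 192 to 206 and 191 to 201. The array medians were 5.14 to 5.21, and the lowest correlation between arrays of 1 group was 0.995 (rounded) across probe sets, which are not independent replicates. The control probe sets for ACTB, read at the 3' and 5' ends to judge RNA quality, differed by 0.33 ± 0.060 with TGFβ and 0.55 ± 0.031 without (3' minus 5', SD, n = 3 each), and those for GAPDH by -0.028 ± 0.023 and -0.0096 ± 0.0096. Whether this difference between the groups had a part in the changes above was not tested. In such bulk RNA, a change in the number of cells that express a gene cannot be told apart from a change in the RNA per cell.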

How the data were processed

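RNA from 3 TGFβ-treated and 3 untreated Panc-1 cultures was hybridized to 1 array each. The authors deposited log2 values, 1 per probe set and array (2.89 to 14.8). The software and any normalization between arrays are not given in the sources used here. Labels give the dose in ng/mL and the study's methods give the same number in nM; the labels were followed.

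Of the probe sets, 62 controls were left out, and 1801 named several genes and 11721 none. Symbols were updated by Entrez ID in the RefSeq gene table (19735 of 19777 matched). Probe sets whose log2 values averaged under 6.64 in each group were dropped, and the rest were averaged per gene. The study set its limit of 100 on the mean absolute signal, so the rules differ. The groups were compared by two-sided moderated tests (limma 3.58.1, R 4.3.3, functions lmFit and eBayes). Replicate number entered as a block, following the paired test of the study, and p-values were Benjamini-Hochberg adjusted over all features fitted. The gene fit had 2 residual and 4.12 prior degrees of freedom. P-values of this fit measure the spread of the TGFβ minus untreated difference over the 3 replicate numbers, moderated over all features fitted. The number of arrays limits precision. The workflow was tested on simulated data. Plots used Python 3.11.15 and matplotlib 3.10.9.

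The text names all 10 genes with every probe set, of the myosin II list the 4 largest rises and falls called (1 of these rises is not reported here), and all genes of the SRF and smooth muscle lists that were measured. The 10 genes and the lists were chosen with earlier results of these data known. Of TAGLN3, MYH11, ACTA2, MYL12B, CDH1, KRT7, KRT8, KRT18 and KRT19 the values were added after they were seen. Alternatives covered the block, the signal limit, scaling of the arrays, adding 16 to the linear signal, an intensity trend, dropping names that end in _x_at, taking only the brightest probe set of a gene, leaving out each replicate and the methods' t-test.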

Additional observations from a re-analysis of the deposited data

How the results depend on the processing

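Under the 14 other settings, the directions of MYL9, TAGLN, TAGLN2, CNN3, MYH10, MYLK, MYL12A and MYH9 stayed as reported wherever they were measured. MYL9 and TAGLN could not be measured under the stricter limit (100 in both groups), which by its construction left 3 of 7 genes called (57.0% of all genes). The change of CNN2, near 0, ranged from -0.019 to 0.027 with 1 replicate left out, being -0.019 without replicate 1 and -0.0021 without replicate 3. CNN3 lost its call in the methods' t-test after adjustment (adjusted value 0.0628). With limma, MYL12A gained one with an intensity trend (adjusted p = 0.0199) and without the limit on signal (0.0169), over a range of 0.0169 to 0.227, and MYLK gained one without replicate 1 (0.0480) and with the brightest probe set (0.0235), over a range of 0.0235 to 0.629.

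With 1 replicate left out, 5 to 6 of 9 genes, 8 to 9 of 13 probe sets and 9 to 17 myosin II regulators were called. Over the array, 63.9%, 42.5% and 46.6% of genes and 61.1%, 38.5% and 41.8% of probe sets were called without replicates 1, 2 and 3. The methods' t-test after adjustment called 5 of 13 probe sets (17.1% of all) and 7 of 27 regulators (23.9% of all genes). Regulators called were 8 of 34 without the limit on signal (26.8% of all genes) and 10 of 27 with median centring (51.1%), and the causes were not tested.

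Without the replicate block 6 of 9 genes were called (61.9% of all genes), MYL12A being added (adjusted p = 0.0400). Deviations of same-numbered arrays from their group means correlated at -0.24, 0.24 and 0.11 for numbers 1, 2 and 3, so the numbers do not show a pairing, and not every array correlated best with its own number. PPP1R12A lost its call without the block (adjusted p = 0.101, range over settings 0.00529 to 0.268). Left-out replicates leave 2 arrays per group, and the permutation test then cannot go below p = 0.333.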
